A study of Aedes aegypti with 7 samples.

Results

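The genes described here are 54 chaperone and secretory genes of the yellow fever mosquito, Aedes aegypti, in whose transcripts AGO1 CLIP-seq peaks were found. They are the annotation IDs of the VectorBase transcript track whose name holds 1 of 9 terms, namely heat shock, chaperon, disulfide isomerase, calreticulin, calnexin, signal recognition, sec61, coatomer or translocon. They make up 54 of 8578 IDs with at least 1 peak, and 423 of the 48655 peaks in VectorBase transcripts. The choice rests on names, so it also took in genes that only work beside a chaperone, such as the heat shock transcription factor and proteins that bind hsp70, and 1 non-coding RNA, the RNA of the signal recognition particle. CLIP-seq sequences the RNA that was crosslinked by ultraviolet light to a protein and came down with it in an immunoprecipitation. AGO1, the protein here, is the Argonaute that microRNAs guide to messenger RNAs to silence them.

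The tissue was the fat body of adult females of the strain UGAL/Rockefeller, an insect organ that stores nutrients and secretes yolk proteins after a blood meal. There were 3 libraries at 24 h post blood meal (PBM) and 3 libraries at 72 h post eclosion (PE, eclosion being the emergence of the adult). The 72 h PE females were 3 or 4 days old, and the PBM females came from the same cages and were then given blood. Both groups carried the same strain and had no other treatment named, and the comparison asks which RNAs AGO1 touched after the meal and before it. No unfed females of the later age were sampled for CLIP-seq, so the blood meal cannot be told apart from greater age. CLIP counts also follow the amount of RNA as well as its contact with AGO1, and in whole tissue fewer cells of a type and less RNA per cell cannot be told apart. The design text calls the replicates independent and biological, and every n = 3 below rests on that.

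A secreted protein passes through a fixed series of helpers. The signal recognition particle binds the signal peptide as it leaves the ribosome and docks the ribosome at the Sec61 channel of the endoplasmic reticulum (ER). Inside the ER, disulfide isomerases form and reshuffle the bonds between cysteines, and the lectin chaperones calnexin and calreticulin hold sugar-bearing proteins until they are folded. Vesicles coated with coatomer return material from the Golgi apparatus to the ER. In the cytosol and mitochondria, heat shock proteins, their DnaJ partners and the ring-shaped chaperonins fold proteins that are not secreted. In the mosquito fat body this machinery is known for its heavy load during yolk protein secretion.

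The deposited counts per peak and library summed to 132758, 90568 and 91903 at 24 h PBM, and to 83810, 107245 and 69424 at 72 h PE. Of these, 45.6 to 47.4% at 24 h PBM and 42.8 to 49.9% at 72 h PE lay in VectorBase transcripts. The 9 fat body marker IDs (yolk proteins, lipid carriers and transferrin) held 2092 to 2687 counts at 24 h PBM and 52 to 116 at 72 h PE, and all were detected. Yolk protein genes alone held 2593, 2683 and 2082 of these counts at 24 h PBM, and 44, 82 and 108 at 72 h PE. The contrast is thus that of the yolk genes, and the few counts of the lipid carriers and transferrin do not measure fat body content. The 8 hemocyte IDs, all detected, held 34 to 55 counts at 24 h PBM, against 4 to 13 at 72 h PE. The 3 ovary IDs held 9 to 195 counts against 0 to 2, the 42 muscle IDs 427 to 615 against 358 to 449, the 31 neural IDs 32 to 45 against 18 to 30, and the 12 midgut IDs 8 to 19 against 9 to 17. The part of these other markers in the results below was not tested.

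The 54 genes took a smaller share of AGO1-bound reads after the blood meal. They held 126, 118 and 109 counts at 24 h PBM, and 276, 409 and 212 at 72 h PE. This was 0.203% (95% Wilson interval 0.171 to 0.242), 0.286% (0.239 to 0.342) and 0.250% (0.208 to 0.302) of the counts in VectorBase transcripts at 24 h PBM. At 72 h PE it was 0.769% (0.684 to 0.865), 0.764% (0.693 to 0.841) and 0.628% (0.549 to 0.718). The groups did not overlap, and the mean was 0.246% ± 0.0413 at 24 h PBM and 0.720% ± 0.0798 at 72 h PE (SD, n = 3 each), a difference of -0.474 percentage points. The intervals cover counting error only, and no p is given for this sum because the genes were chosen with results of these data known. Yolk protein genes took 5.15% ± 1.20 of transcript counts at 24 h PBM and 0.199% ± 0.106 at 72 h PE. With them left out of the total, the share of the 54 genes was 0.260% at 24 h PBM and 0.722% at 72 h PE.

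**Figure D1:**
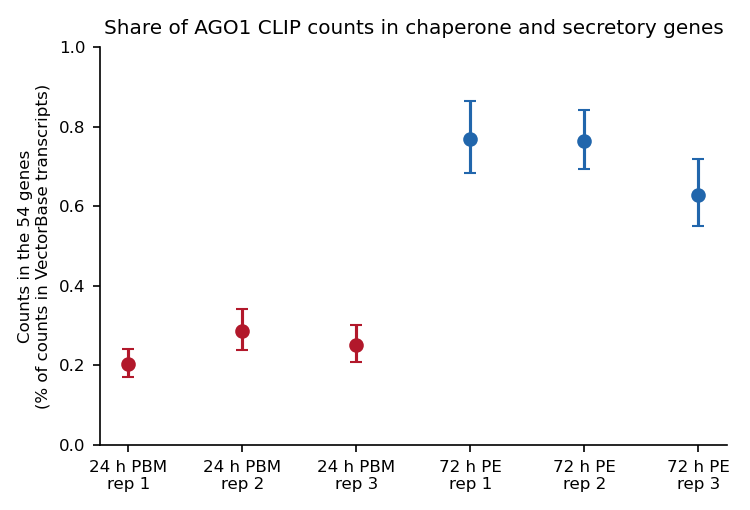
Share of the counts in VectorBase transcripts that fell in the 54 chaperone and secretory genes, in percent (vertical axis), for each of the 6 libraries (horizontal axis), with 95% Wilson intervals of counting error as bars. The 3 libraries at 24 h PBM lie between 0.203 and 0.286%, all below the 3 libraries at 72 h PE at 0.628 to 0.769%.

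The size of this difference depends on the scale. TMM scaling, which sets the bulk of the tested genes level, gave factors of 0.712 to 0.749 at 24 h PBM and 1.34 to 1.39 at 72 h PE, so that a gene with an equal share in both groups came out higher at 24 h PBM. On this scale, given as CPM, a count rate over the total of the 627 genes that passed the expression filter, the 54 genes summed to 3409, 4899 and 4712 at 24 h PBM, against 8422, 8284 and 6870 at 72 h PE. The mean at 24 h PBM, 4340 ± 812, was 0.552 of that at 72 h PE, 7859 ± 859 (SD, n = 3 each). This sum leaves out the DnaJ gene AAEL003588, annotated DNA-J/hsp40, which the name terms missed. That gene alone had 2462, 8802 and 6657 CPM at 24 h PBM, against 824, 2005 and 2268 CPM at 72 h PE. The direction of the difference in mean CPM therefore holds for the 54 genes as named, and depends on leaving that gene out. With library totals in place of TMM, the median log2 fold change of all 627 genes moved by -0.88, and 76.4% of them lay below 0. All CPM and fold changes below are on the TMM scale, and every fold change is 24 h PBM over 72 h PE.

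By mean CPM, 42 of the 54 genes were lower at 24 h PBM and 12 were higher, while 49.1% of all 8578 IDs were lower. Counts per gene were small. The 54 genes had 1 to 248 counts over the 6 libraries, 25 of them had fewer than 10, and 10 had no more than 3. Single libraries detected 30, 32 and 34 of them at 24 h PBM, and 35, 42 and 36 at 72 h PE.

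Of the 54 genes, 3 passed edgeR's expression filter, 2 disulfide isomerases and a DnaJ protein. None of the 3 was called at an adjusted p under 0.05 by edgeR's quasi-likelihood test or by DESeq2, against 12.3% of all 627 genes called lower and 14.7% called higher. An unadjusted p under 0.05 was reached by 1 of the 3 and by 37.5% of the 627 in edgeR. A wider test took every gene with at least 10 counts over the 6 libraries, 2979 in all, among them 29 of the 54. This filter was added after the counts were seen. In it, 25 of the 29 had a log2 fold change below 0, with a median of -1.06, against 50.4% below 0 and a median of -0.01 over all 2979 genes. It called 2 of the 29 lower and none higher, beside 2.85% of all genes called lower and 4.6% called higher. An unadjusted p under 0.05 was reached by 7 of the 29, 6 of them lower and 1 higher, and by 19.4% of the 2979. Both called genes were chaperonins, and DESeq2 called neither. They had 2 and 4 counts at 24 h PBM against 45 and 42 at 72 h PE, and so passed this filter through 72 h PE alone. Most of the 29 did the same. AAEL011650 and AAEL005856 passed through 24 h PBM alone, with 12 and 10 counts there and 2 each at 72 h PE. The number of the 29 below 0 is therefore a description only. With library totals in place of TMM, all 3 genes of the first test were called lower and none higher, beside 39.9% of the 627 called lower and 8.61% called higher. The wider test then called 6 of the 29 lower and none higher, beside 9.7% of the 2979 called lower and 2.89% called higher.

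In 6 of the 29 genes every 24 h PBM library lay below every 72 h PE library on the TMM scale, and in 2 every one lay above. The background over the 2979 genes was 10.9% for the first pattern and 13.2% for the second. The 6 were the disulfide isomerases AAEL000641 and AAEL001432, the chaperonins AAEL001715, AAEL010063 and AAEL009320, and the heat shock protein AAEL001052. The 2 were the tubulin chaperone AAEL004440 and the coatomer gamma subunit AAEL011650. Several names recur across IDs, and how reads shared between near-identical copies were counted is not given in the sources used here, so values of same-named genes are uncertain to that extent.

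**Figure D2:**
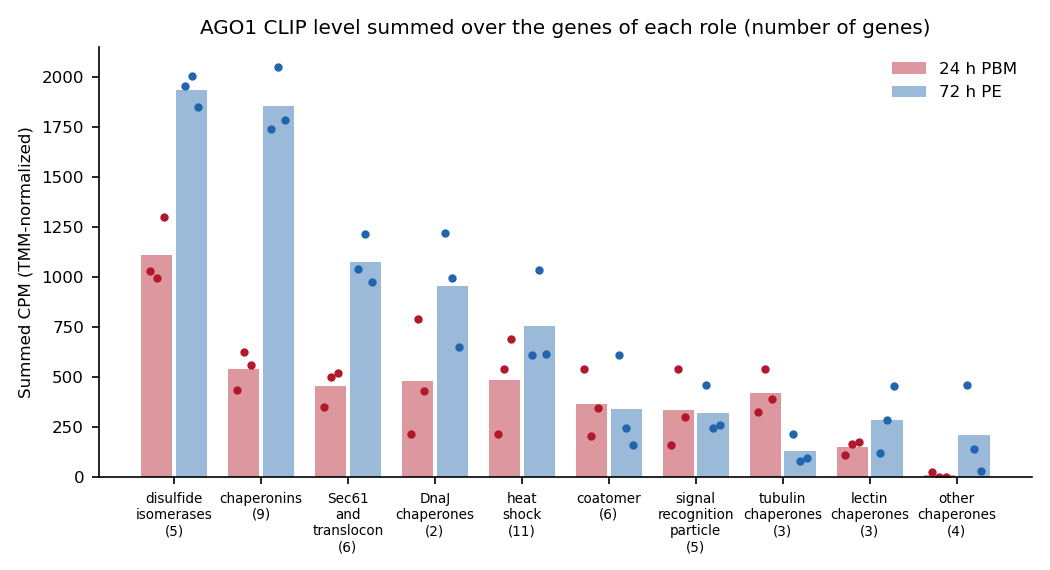
Summed TMM-normalized CPM (vertical axis) of the genes of each role, with the number of genes in brackets (horizontal axis), as group means (bars; 24 h PBM in red, left, and 72 h PE in blue, right) and single libraries (points). Disulfide isomerases, chaperonins and the Sec61 and translocon genes were lower in every 24 h PBM library, and tubulin chaperones were higher in every one. The other chaperones were lower too, but by scaling alone between 24 h PBM replicate 1 and 72 h PE replicate 3, which had 1 count each. DnaJ, heat shock, lectin chaperone, coatomer and signal recognition particle genes overlapped.

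The signal recognition particle and its receptor, the first step of secretion, were represented by 5 IDs. Together they had 335 ± 191 CPM at 24 h PBM and 320 ± 120 CPM at 72 h PE (SD, n = 3 each), and the groups overlapped. The 68 kDa protein of the particle, AAEL010060, had 6, 1 and 2 counts at 24 h PBM, and 15, 4 and 7 at 72 h PE. Its groups overlapped, and its log2 fold change of -1.30 (SE 0.85) was not called (edgeR adjusted p = 0.421 in the wider test). It was -2.08 without 24 h PBM replicate 1 and -0.60 without 72 h PE replicate 1. Most of its counts came from 1 coding peak on the minus strand of supercontig 1.450, from 702766 to 702816 on the AaegL3 assembly, which held 1, 0 and 2 counts at 24 h PBM and 15, 3 and 5 at 72 h PE. The receptor's alpha subunit, AAEL005856, which sits on the ER membrane and binds the particle, had 0, 8 and 2 counts at 24 h PBM and 0, 2 and 0 at 72 h PE. Of its 10 counts at 24 h PBM, 7 lay in a single coding peak in replicate 2. The 54 kDa protein AAEL013076, which binds the signal peptide, had 0, 3 and 3 counts at 24 h PBM and 0, 2 and 1 at 72 h PE. The particle's RNA, AAEL017590, had 1 count at 24 h PBM and 3 at 72 h PE.

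The Sec61 channel and the translocon-associated proteins beside it were lower after the blood meal as a group. Their 6 IDs summed to 352, 498 and 519 CPM at 24 h PBM, against 1037, 1215 and 972 CPM at 72 h PE. The mean of 456 ± 91.1 at 24 h PBM was 0.424 of the 1075 ± 126 at 72 h PE (SD, n = 3 each), and the groups did not overlap. Each of the 5 with at least 10 counts had a log2 fold change below 0, and none was called. All of the 5 but AAEL004523 reached 10 counts through 72 h PE alone, so their common direction is a description only. The channel-forming subunit AAEL004523 had 6, 4 and 5 counts at 24 h PBM, and 20, 20 and 6 at 72 h PE. Replicate 3 at 72 h PE had the fewest of its group, and after scaling it fell within the 24 h PBM range, at 194 CPM against 162, 166 and 216 CPM. The fitted log2 fold change was -1.24 (SE 0.65, edgeR adjusted p = 0.272 in the wider test). It was called lower with library totals, at -1.87 (edgeR adjusted p = 0.0339), and with library sizes from all peaks, at -1.82 (adjusted p = 0.0456). A second sec61 gene of the same name, AAEL010716, had 0, 3 and 1 counts at 24 h PBM and 5, 4 and 7 at 72 h PE. The small gamma subunit of the channel, AAEL005471, had 1 count at 24 h PBM and 4 at 72 h PE.

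The translocon-associated proteins help some proteins enter the channel. The delta subunit AAEL013320 had 2, 2 and 1 counts at 24 h PBM, and 2, 16 and 5 at 72 h PE. Replicate 2 at 72 h PE held 69.6% of its counts in that group. The beta subunit AAEL010032 had 2, 1 and 4 counts at 24 h PBM and 4, 13 and 3 at 72 h PE, and the gamma subunit AAEL007441 had 3, 1 and 1 at 24 h PBM and 2, 5 and 8 at 72 h PE. All 3 overlapped between groups on the TMM scale, with log2 fold changes of -1.68 for delta, -1.04 for beta and -1.27 for gamma and SE of up to 1.11.

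A single peak in the coding sequence of the delta subunit was the 1 member peak called. It lies on the plus strand of supercontig 1.822, from 427152 to 427185, and had no count in any 24 h PBM library and 1, 11 and 4 counts at 72 h PE. In a test of all 5074 peaks with at least 10 counts, where 1.89% were called lower and 8.18% higher, edgeR gave it an adjusted p of 0.0364, and its fitted log2 fold change of -5.36 (SE 1.78) depends on the prior count because 1 group was at 0. Without 72 h PE replicate 1 the adjusted p was 0.0264, and without each of the other libraries in turn it was 0.0971 to 0.218. The same test held 26 member peaks in 12 genes, 23 of them below 0, with a median log2 fold change of -2.23, against 50.7% below 0 and a median of -0.02 over all 5074 peaks. Most of the 26 lay in AAEL000641 and AAEL005165, and peaks of 1 gene are not independent. Some reached 10 counts through 72 h PE alone, such as a coatomer beta subunit peak with 0 counts at 24 h PBM and 12 at 72 h PE. These peak numbers are therefore a description only. No member peak passed edgeR's own filter, which left 948 peaks.

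The disulfide isomerases held the most counts of any role, 92 at 24 h PBM and 220 at 72 h PE over 5 IDs. Their summed CPM was 1028, 996 and 1297 at 24 h PBM, against 1953, 2005 and 1847 at 72 h PE. The mean of 1107 ± 165 at 24 h PBM was 0.572 of the 1935 ± 80.5 at 72 h PE (SD, n = 3 each), with no overlap. AAEL000641 alone accounted for most of this, with 35, 19 and 21 counts at 24 h PBM, and 50, 77 and 46 at 72 h PE. On the TMM scale this was 947, 789 and 908 CPM at 24 h PBM, against 1526, 1560 and 1491 CPM at 72 h PE. All 3 libraries at 24 h PBM lay below all 3 at 72 h PE, and the spread within each group was small, 881 ± 82.4 CPM at 24 h PBM and 1525 ± 34.5 CPM at 72 h PE (SD, n = 3 each). The log2 fold change of -0.79 (SE 0.39) was not called by edgeR (adjusted p = 0.139 among the 627 genes). With library totals in place of TMM it was called lower at -1.67 (SE 0.39, edgeR adjusted p = 0.00113).

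AAEL000641 was the member with the most peaks, 42 over 16656 bases of the minus strand of supercontig 1.13. The largest, in the 3′ UTR from 667810 to 667863, had 8, 0 and 3 counts at 24 h PBM and 7, 9 and 2 at 72 h PE. A coding peak from 683647 to 683699 had 1, 1 and 2 counts at 24 h PBM and 12, 2 and 5 at 72 h PE, and it was the 1 member peak of 423 with counts in all 6 libraries. Its neighbour from 683586 to 683646 had 2, 1 and 0 counts at 24 h PBM and 3, 3 and 10 at 72 h PE. Neither coding peak was called (edgeR adjusted p = 0.231 and 0.222 among the 5074 peaks).

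A second disulfide isomerase, AAEL001432, had 2, 5 and 5 counts at 24 h PBM, and 12, 16 and 10 at 72 h PE. Its CPM of 54.1, 208 and 216 at 24 h PBM lay below the 366, 324 and 324 at 72 h PE. The log2 fold change was -1.16 (SE 0.56) and was not called by edgeR (adjusted p = 0.133 among the 627 genes, and -0.64 without 24 h PBM replicate 1), while with library totals it was called lower at -2.03 (SE 0.57, edgeR adjusted p = 0.00485). Its largest peak, coding, on supercontig 1.32 from 3019362 to 3019409, had 4 counts in each group. The other 3 isomerases had 1 to 8 counts each.

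The lectin chaperones were sparse, with 12 counts at 24 h PBM and 32 at 72 h PE over 3 IDs. The calreticulin gene AAEL001005 had 1, 4 and 3 counts at 24 h PBM, and 1, 10 and 11 at 72 h PE. Replicate 1 was the lowest of both groups, and the groups overlapped. A log2 fold change of -1.04 was fitted (SE 0.92, edgeR adjusted p = 0.590 in the wider test), which ran from -1.54 without 72 h PE replicate 1 to -0.43 without 72 h PE replicate 3. Its largest peak lay in the 5′ UTR on supercontig 1.20, from 3622971 to 3622996, with 3 counts at 24 h PBM and 6 at 72 h PE. Calnexin, AAEL015100, the membrane-bound relative of calreticulin, had 2, 0 and 1 counts at 24 h PBM and 3, 4 and 1 at 72 h PE. The second calreticulin ID had 3 counts in all.

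Coatomer genes, which coat vesicles on their way back to the ER, did not separate the groups. Their 6 IDs summed to 541, 208 and 346 CPM at 24 h PBM, against 610, 243 and 162 CPM at 72 h PE. The beta subunit AAEL004546 had 9, 0 and 3 counts at 24 h PBM, and 13, 8 and 5 at 72 h PE. Of the 13 counts in 72 h PE replicate 1, 12 lay in 1 intronic peak on supercontig 1.123, from 1769389 to 1769435, which had no count in any other library. Its log2 fold change was -0.87 (SE 0.80, edgeR adjusted p = 0.608 in the wider test). That value was -2.04 without 24 h PBM replicate 1, -0.34 without 24 h PBM replicate 2 and -0.36 without 72 h PE replicate 1. The gamma subunit AAEL011650 ran the other way, with 7, 3 and 2 counts at 24 h PBM against 1, 1 and 0 at 72 h PE. Its groups did not overlap, yet its log2 fold change of 2.67 (SE 1.44) was not called (edgeR adjusted p = 0.295 in the wider test), and 5 of its 7 counts in 24 h PBM replicate 1 came from a single peak. The ID AAEL013098, named coatomer only, had 1, 1 and 3 counts at 24 h PBM and none at 72 h PE, and the delta subunit AAEL013230 had none at 24 h PBM and 3, 3 and 0 at 72 h PE.

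The chaperonins showed the widest gap between the groups among the roles with more than 100 counts. These proteins build ring-shaped complexes that fold other proteins in a closed chamber, actin and tubulin among the textbook clients of the cytosolic form. Their 9 IDs had 44 counts at 24 h PBM and 213 at 72 h PE. Summed CPM was 433, 623 and 562 at 24 h PBM, against 1739, 2046 and 1782 at 72 h PE, with no overlap. The mean of 539 ± 97.0 at 24 h PBM was 0.291 of the 1856 ± 166 at 72 h PE (SD, n = 3 each). In the wider test all 8 chaperonins with at least 10 counts had a log2 fold change below 0, with a median of -1.63, and 2 were called lower. Over all 2979 genes 50.4% lay below 0 and 2.85% were called lower. All of the 8 but AAEL000486 reached 10 counts through 72 h PE alone, so their common direction is a description only.

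The chaperonin AAEL001715 was lower at 24 h PBM. It had 0, 1 and 1 counts at 24 h PBM, and 8, 19 and 18 at 72 h PE. That is 0, 41.5 and 43.2 CPM at 24 h PBM, against 244, 385 and 583 CPM at 72 h PE, far apart in every library. The ratio of 24 h PBM to 72 h PE was 0.0597, with a 95% exact interval of counting error from 0.00701 to 0.228. Its log2 fold change was -3.93 (SE 0.95, edgeR adjusted p = 0.00127 in the wider test), and it was also called with no filter (adjusted p = 0.00732) and in the wider test without each of the 6 libraries in turn. DESeq2 gave an adjusted p of 0.0505. Its 18 peaks lay over 3184 bases of supercontig 1.40, and the largest, coding, from 3074544 to 3074616, had no count at 24 h PBM and 0, 1 and 7 at 72 h PE.

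The chaperonin AAEL010063 was also lower at 24 h PBM, with 3, 1 and 0 counts, against 19, 16 and 7 at 72 h PE. Its CPM of 81.2, 41.5 and 0 at 24 h PBM lay below the 580, 324 and 227 at 72 h PE. The log2 fold change was -2.98 (SE 0.86, edgeR adjusted p = 0.0127 in the wider test). The call was lost with no filter (adjusted p = 0.0581), without 24 h PBM replicate 3 (adjusted p = 0.0876) and without 72 h PE replicate 1 (adjusted p = 0.126), and DESeq2 gave 0.120. Of the 19 counts in 72 h PE replicate 1, 10 came from 1 coding peak on supercontig 1.450, from 160642 to 160688.

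AAEL009320 had 0, 2 and 0 counts at 24 h PBM, and 4, 11 and 9 at 72 h PE. Its groups did not overlap, and the ratio was 0.112 (95% exact counting interval 0.0128 to 0.451), but it was not called (edgeR adjusted p = 0.105 in the wider test). It was called lower with library totals (adjusted p = 0.0192), with library sizes from all peaks (0.0215) and without 24 h PBM replicate 2 (0.0376), all by edgeR. AAEL007702 had 1, 0 and 3 counts at 24 h PBM and 9, 13 and 2 at 72 h PE, with the lowest 72 h PE library inside the 24 h PBM range. AAEL000486 had 4, 2 and 4 counts at 24 h PBM and 13, 10 and 0 at 72 h PE. In that gene 10 of the 13 counts of 72 h PE replicate 1 came from 1 coding peak on supercontig 1.9, from 3584146 to 3584202, and its log2 fold change was -0.82 (SE 0.87, edgeR adjusted p = 0.665 in the wider test). Without 72 h PE replicate 1 that value was -0.041, and without 72 h PE replicate 3 it was -1.39. The 60 kDa chaperonin AAEL011584, by its name the mitochondrial form, had 1, 5 and 2 counts at 24 h PBM, against 4, 10 and 10 at 72 h PE. Its groups overlapped, and its log2 fold change was -1.17 (SE 0.90, edgeR adjusted p = 0.523 in the wider test), with -2.07 without 24 h PBM replicate 2 and -0.70 without 24 h PBM replicate 1. The remaining 3 chaperonins, AAEL006946, AAEL012746 and AAEL007650, had 9, 4 and 1 counts in all at 24 h PBM, against 13, 10 and 8 at 72 h PE, and overlapped.

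**Figure D3:**
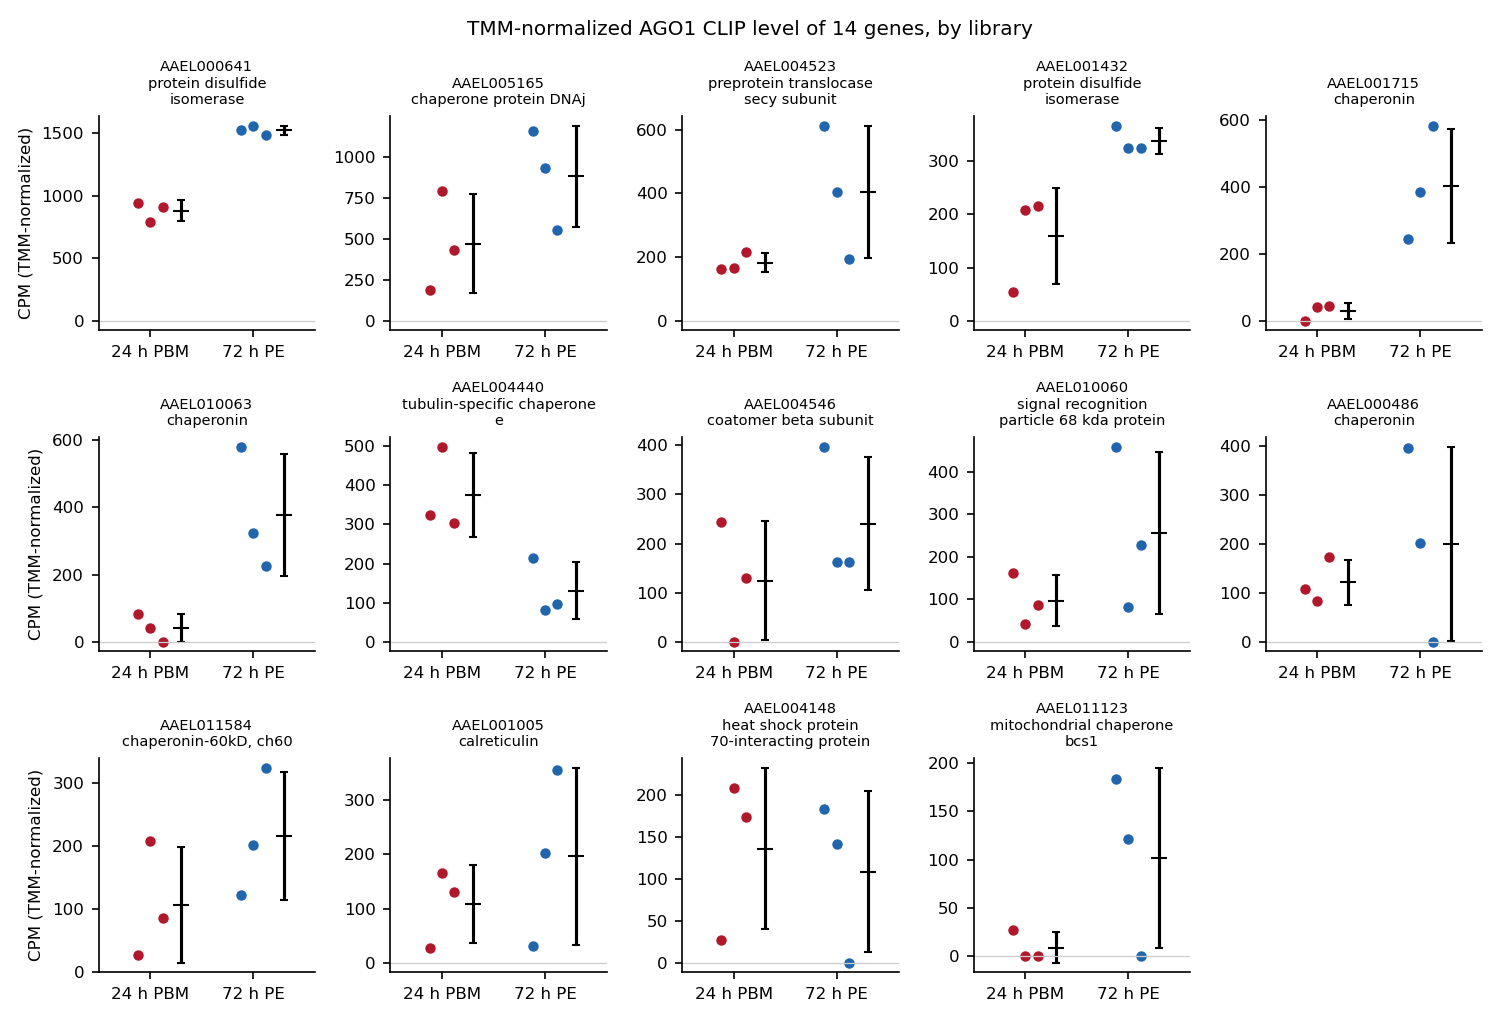
TMM-normalized CPM (vertical axes, each gene on its own scale from 0) of the 14 genes given in full, with 1 point per library at 24 h PBM (red, left) and 72 h PE (blue, right) and the mean ± SD beside the points. The disulfide isomerases AAEL000641 and AAEL001432 and the chaperonins AAEL001715 and AAEL010063 show all red points below all blue ones. The tubulin chaperone AAEL004440 shows all red points above all blue ones.

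DnaJ proteins hand clients to hsp70 and start its cycle of binding and release. AAEL005165 had 7, 19 and 10 counts at 24 h PBM, and 38, 46 and 17 at 72 h PE. In CPM this was 189, 789 and 432 at 24 h PBM, against 1160, 932 and 551 at 72 h PE, and the groups overlapped through 24 h PBM replicate 2. The log2 fold change was -0.95 (SE 0.51) and was not called by edgeR (adjusted p = 0.171 among the 627 genes, with -0.50 without 24 h PBM replicate 1 and -1.48 without 24 h PBM replicate 2), while with library totals it was called lower at -1.83 (SE 0.51, edgeR adjusted p = 0.00455). Its largest peak, coding, on supercontig 1.144 from 4420 to 4494, had 0, 0 and 2 counts at 24 h PBM and 6, 4 and 2 at 72 h PE. The second DnaJ gene, AAEL011055, had 1, 0 and 0 counts at 24 h PBM and 2, 3 and 3 at 72 h PE.

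The 11 heat shock IDs summed to 483 ± 243 CPM at 24 h PBM and 753 ± 242 CPM at 72 h PE (SD, n = 3 each), and the groups overlapped. None was called. The hsp70-interacting protein AAEL004148 had 1, 5 and 4 counts at 24 h PBM and 6, 7 and 0 at 72 h PE. Its log2 fold change was 0.08 (SE 1.03, edgeR adjusted p = 0.982 in the wider test), and it was below 0 with library totals, at -0.50. Of its 23 counts, 15 lay in 1 peak in the 3′ UTR on supercontig 1.108, from 1208059 to 1208089, with 0, 5 and 3 counts at 24 h PBM and 5, 2 and 0 at 72 h PE. The heat shock transcription factor AAEL010319, which switches on heat shock genes, had 1, 0 and 2 counts at 24 h PBM and 2, 15 and 1 at 72 h PE, so that 83.3% of its 72 h PE counts came from replicate 2. The heat shock protein AAEL011708 had 2, 0 and 2 counts at 24 h PBM and 2, 7 and 6 at 72 h PE. AAEL001052 had 2, 2 and 1 counts at 24 h PBM and 3, 7 and 3 at 72 h PE, without overlap on the TMM scale, at a log2 fold change of -0.94 (SE 1.19). The other hsp70-interacting protein with at least 10 counts, AAEL006531, had 0, 3 and 3 counts at 24 h PBM and 2, 5 and 3 at 72 h PE. The remaining 6 heat shock IDs had 2 to 8 counts each.

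Tubulin chaperones, which assemble tubulin dimers, were the 1 role with a higher sum in every 24 h PBM library. Their 3 IDs had 325, 540 and 389 CPM at 24 h PBM, against 214, 81.0 and 97.2 CPM at 72 h PE. Nearly all of this was the tubulin-specific chaperone e, AAEL004440, with 12, 12 and 7 counts at 24 h PBM and 7, 4 and 3 at 72 h PE. Its log2 fold change of 1.44 (SE 0.71) was not called (edgeR adjusted p = 0.237 in the wider test). Its 22 peaks spread over 66653 bases of supercontig 1.119, and the largest, from 469667 to 469720, held 7 of its 45 counts.

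The last 4 IDs, which carried the word chaperone alone, had 1 count at 24 h PBM and 23 at 72 h PE. The mitochondrial chaperone bcs1, AAEL011123, which in yeast helps assemble a respiratory complex, had 1, 0 and 0 counts at 24 h PBM and 6, 6 and 0 at 72 h PE. Its log2 fold change was -2.87 (SE 1.65, edgeR adjusted p = 0.339 in the wider test, and -4.83 without 24 h PBM replicate 1), and all but 1 of its 13 counts lay in 1 coding peak on supercontig 1.542, from 581099 to 581145. AAEL015061, a chaperone binding protein, had all of its 9 counts in 1 peak of 72 h PE replicate 1. The other 2 IDs had 1 count each, both at 72 h PE.

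**Figure D4:**
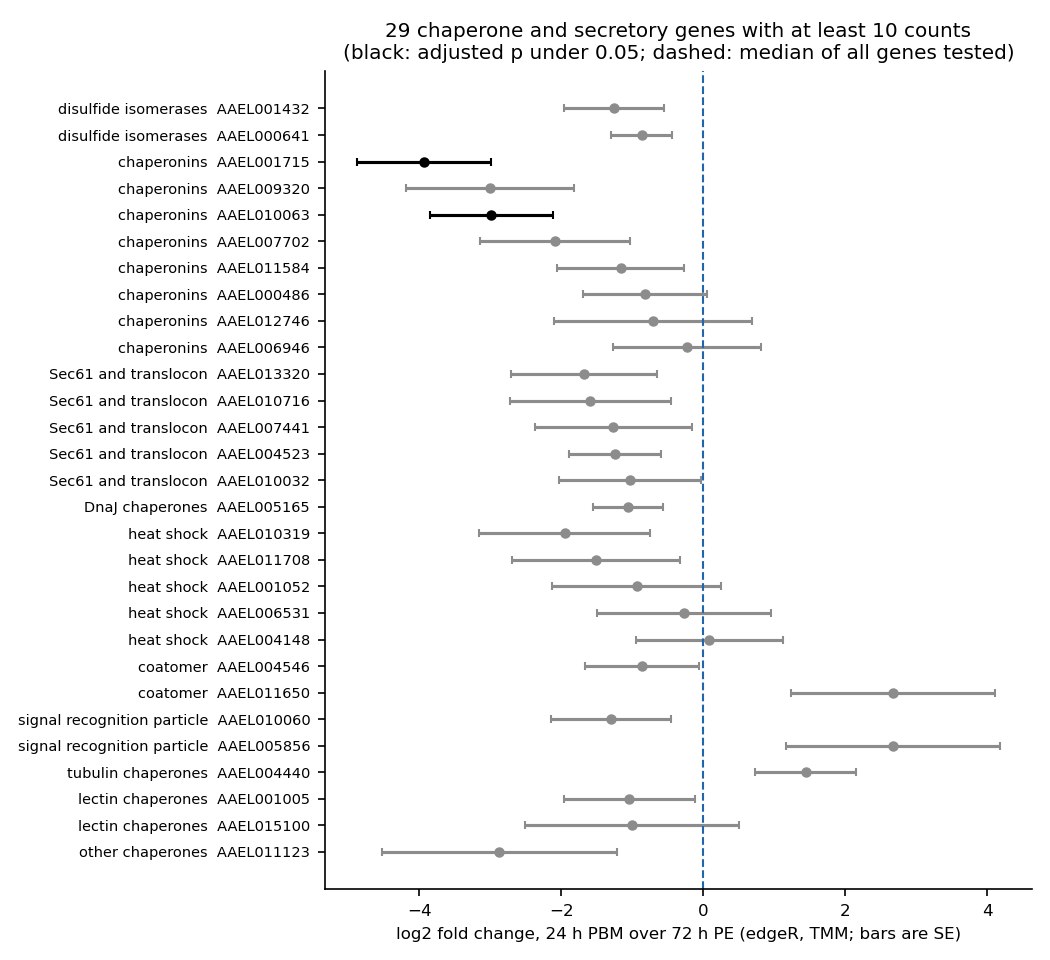
Log2 fold change at 24 h PBM over 72 h PE (horizontal axis, edgeR with TMM, bars are SE) of the 29 genes with at least 10 counts, ordered by role (vertical axis). The dashed line is the median of all 2979 genes tested, -0.01, and 25 of the 29 genes lie below 0, with the 2 called chaperonins in black.

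Peaks in these genes lay mostly in coding sequence. Of the 423 member peaks, 284 (67.1%) were classed as CDS by the authors, 51 (12.1%) as 3′ UTR, 43 (10.2%) as intron and 28 (6.62%) as 5′ UTR. Among all 48655 transcript peaks the shares were 55.4% CDS, 11.3% 3′ UTR, 23.3% intron and 4.58% 5′ UTR. Of their counts, the chaperonins had 90.3% in CDS and 3.89% in 3′ UTR. In Sec61 and translocon genes 49.1% of counts lay in CDS and 34.8% in 3′ UTR.

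By counts, coding sequence took 54.8, 61.9 and 63.3% of member counts at 24 h PBM, against 69.6, 68.5 and 75.0% at 72 h PE. The member groups did not overlap, at 60.0% ± 4.57 at 24 h PBM and 71.0% ± 3.50 at 72 h PE (SD, n = 3 each). Over all VectorBase transcripts the order was the opposite, 61.9% ± 4.18 at 24 h PBM and 49.2% ± 3.12 at 72 h PE. The 3′ UTR share of member counts was 25.4, 11.9 and 22.0% at 24 h PBM, against 13.4, 13.7 and 15.6% at 72 h PE, and overlapped. Each of these shares rests on 109 to 126 member counts per library at 24 h PBM and 212 to 409 at 72 h PE.

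**Figure D5:**
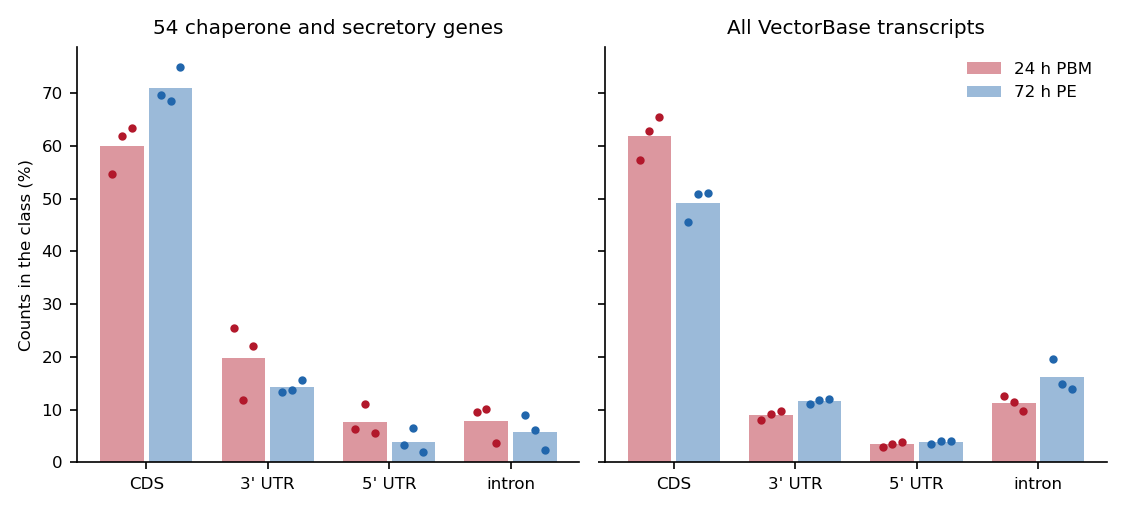
Share of counts by annotation class in percent (vertical axis), for the 54 chaperone and secretory genes (left panel) and for all VectorBase transcripts (right panel), as group means (bars; 24 h PBM in red, left, and 72 h PE in blue, right) and single libraries (points). The coding share of the 54 genes was 60.0% at 24 h PBM and 71.0% at 72 h PE, while over all transcripts it was 61.9 and 49.2% in the same order.

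Most member peaks were small and were seen in 1 library. Of the 423 peaks, 201 (47.5%) held a single count and 293 (69.3%) had counts in 1 library alone, close to the 49.0% and 72.9% among all transcript peaks. Their median length was 27 bases, with a range of 7 to 84. Peaks of at least 10 counts numbered 26, of which 16 were in CDS and 7 in 3′ UTR.

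Other genes of folding and secretion, 119 IDs taken by name from a list of further chaperones, ER enzymes and vesicle proteins, gave few calls. In the 627-gene test 5 of them were tested and 1 was called lower, beside 12.3% of all 627 genes. It was the peptidyl-prolyl isomerase AAEL011758 (ppif), an enzyme that speeds a slow step of folding. It had 5, 8 and 5 counts at 24 h PBM, against 31, 20 and 33 at 72 h PE, with a log2 fold change of -1.83 (SE 0.56, edgeR adjusted p = 0.0174). In the wider test 47 were tested, with a median log2 fold change of -0.11, 2 called lower and 1 higher, beside 2.85% of all 2979 genes called lower and 4.6% called higher. The second lower one was AAEL011711, the alpha subunit of the nascent polypeptide associated complex, which meets new chains at the ribosome, with 1, 0 and 0 counts at 24 h PBM and 14, 9 and 2 at 72 h PE (edgeR adjusted p = 0.0351). A second ID of the same name, AAEL009651, was not called, at a log2 fold change of -1.86 (SE 1.56, edgeR adjusted p = 0.569). The higher one was AAEL013884, a synaptic vesicle protein, with 11, 0 and 3 counts at 24 h PBM and none at 72 h PE (edgeR adjusted p = 0.0451). AAEL011711 and AAEL013884 each passed the filter only through the group where they were higher. Of the 47, none was called higher in the wider test with library totals, library sizes from all peaks, DESeq2 or the replicate block, or without any 1 library other than 24 h PBM replicate 2. DESeq2 called none of them lower either, and the replicate block called 1 lower.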

How the data were processed

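Fat body AGO1 CLIP-seq libraries, 3 at 24 h PBM and 3 at 72 h PE, were compared. Per the labels' protocols, sliced tissue received 900 mJ/cm2 of ultraviolet light before lysis and AGO1 immunoprecipitation. The authors deposited raw counts per peak and library over 1 common peak set, with each peak's length and annotation. Per the file headers, a peak's total counts barcodes, and the assembly is AaegL3 (supercontigs) with gene set AaegL3.3. Whether positions start at 0 or 1 is not given in the sources used here. Tools named in the submitters' processing notes, with no role, are R 3.1.2, bedtools 2.17.0, TopHat2 2.0.14 and Bowtie2 2.2.3.

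Counts were summed by annotation ID over VectorBase transcript rows and tested over all IDs, or over all peaks, with edgeR 4.0.16 in R 4.3.3 (TMM, filterByExpr, robust two-sided quasi-likelihood test, Benjamini-Hochberg at 0.05). The edgeR steps were tested on simulated data. DESeq2 1.42.0, limma-voom (limma 3.58.1), other scalings, filters and omitted libraries were alternatives. Genes given in full are those called, the 12 of highest mean CPM and the highest of each role, 14 in all; others are named by counts, non-overlap or role after their values were seen. The genes and lists were chosen with earlier results of these data known. No ID matched the RefSeq gene table. The list of other genes was kept as its words matched, a receptor kinase among them.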

Additional observations from a re-analysis of the deposited data

How the results depend on the processing

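Calls among the 54 genes depended on scaling, filter and test. The count called lower, 0 of 3 tested among the 627 genes, became 3 with library totals or library sizes from all peaks, where 39.9% and 33.7% of the 627 were called lower. Other filters tested other genes: 1 of 54 was called lower with no filter (0.408% of all 8578 IDs), and 2 of 29 with at least 10 counts in all (2.85% of all 2979 genes). With 1 library left out, 0 to 2 of 3 to 7 were called lower, beside 5.08 to 8.92% of all genes tested. Leaving out a library also changed the genes that passed the filter. In the wider test the 2 lower calls became 6 with library totals or all-peak sizes, where 9.7% and 8.86% of the 2979 genes were called lower. They became 0 with DESeq2 (0.772% of all genes), and were 1 to 3 with 1 library left out (1.07 to 3.02% of all genes). Library totals moved the median log2 fold change of all 2979 genes there by -0.62, and all-peak sizes moved that of the 627 genes by -0.69. No gene of the 54 was called higher under any alternative run. No member peak passed edgeR's own filter, so 0 were tested and none could be called there. With a total of at least 10 per peak, 1 of 26 was called lower, beside 1.89% of all 5074 peaks. The difference in share, -0.474 percentage points, was -0.338 over peaks of at least 10 counts and -0.520 to -0.449 with 1 library left out. As a share of all counts it was -0.224. The 72 h PE mean was 2.96 times the 24 h PBM mean there, and 2.92 times as a share of transcript counts. For the other folding and secretory genes, the 1 lower call became 2 with library totals, 0 with no filter, with at least 10 counts in every library or over peaks of at least 10 counts, 2 with at least 10 counts in all, and 0 to 1 with 1 library left out, and the higher calls became 1 with at least 10 counts in all. Over the 14 genes given in full, 141 alternative values kept direction and call, 8 gained a call, 4 lost one and 5 reversed. The 5 were all AAEL004148, at -0.50 with library totals, -0.46 with all-peak sizes and, with 1 library left out, -0.47 to 0.57 (-0.41 without 24 h PBM replicate 2, -0.065 without 24 h PBM replicate 3 and -0.47 without 72 h PE replicate 3). The cause was not tested.

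Nothing in the labels ties a replicate number to a cage, and same-numbered libraries correlated at 0.217, 0.0456 and 0.168 in their deviations from the group means, with 5 of 6 correlating best with their own number. The replicate block called 0 of the 54 genes lower, and 2 in the wider test, the same numbers as without it. Of the other folding and secretory genes it called 1 lower and 0 higher in the wider test, against 2 and 1 without it.

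Depth limits these results. Of the 54 genes, 25 had fewer than 10 counts over the 6 libraries, and none of the 25 was called with no filter.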

Other observations

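One more DnaJ gene stands outside both name lists because its annotation reads DNA-J/hsp40, and it was chosen after its values were seen. AAEL003588 had 91, 212 and 154 counts at 24 h PBM, against 27, 99 and 70 at 72 h PE. On the TMM scale this was 2462, 8802 and 6657 CPM at 24 h PBM, against 824, 2005 and 2268 CPM at 72 h PE. All 3 libraries at 24 h PBM lay above all 3 at 72 h PE, and its log2 fold change was 1.80 (SE 0.43, edgeR adjusted p = 0.00251 among the 627 genes, of which 14.7% were called higher). The second gene of that name, AAEL006899, had no count at 24 h PBM and 0, 1 and 2 at 72 h PE. For comparison, the 54 genes together had 126, 118 and 109 counts at 24 h PBM, or 3409, 4899 and 4712 CPM. AAEL003588 alone lay above these sums in 24 h PBM replicates 2 and 3, and below them in replicate 1. The lower CPM sum is therefore a statement on the 54 genes as named, and 1 further gene does not speak for chaperone genes as a class. The counts in VectorBase transcripts were 61962, 41308 and 43525 at 24 h PBM, and 35896, 53561 and 33755 at 72 h PE. As a share of these, the 54 genes and AAEL003588 together still lay lower in every 24 h PBM library than in every 72 h PE library. The direction with AAEL003588 included thus depends on the scale.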
